A study of Mus musculus with 12 samples.

Results

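The genes described here encode the SR proteins and the hnRNP proteins, the main families of RNA-binding regulators of pre-mRNA splicing. They were taken as the genes of the expression table whose names begin with Srsf or Hnrnp, leaving out 1 name that marks a pseudogene. This gave 31 of the 41128 genes in the table, 11 Srsf genes and 20 Hnrnp genes, and all 31 passed the filter on low values. The rule used names only. RNA from lymphocytes of C57BL/6J mouse spleens was sequenced in 12 libraries, which fall into 4 groups of 3, namely CD43- resting B cells of females, CD43- resting B cells of males, CD4+CD62L+ naive T cells of females and CD4+CD62L+ naive T cells of males. The mice were 6 to 8 weeks old, and the labels give no treatment and no genetic change for any group. B cells were depleted of CD43-bearing cells, while T cells were enriched on magnetic beads and then sorted as live cells with CD4, high CD62L, low CD44 and no CD25, so the cell types also differ in how they were purified. Replicates are described as pools of animals, and every SD below is therefore one over pools.

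SR proteins carry RNA recognition motifs and a tail rich in arginine and serine, bind exonic enhancers and recruit the spliceosome to nearby splice sites. Their tail is phosphorylated by the SRPK kinases in the cytoplasm, which lets them enter the nucleus, and by the CLK kinases within it. The hnRNP proteins coat nascent transcripts and often act against SR proteins by blocking or looping out splice sites. In lymphocytes, hnRNP LL is known as the factor that represses the variable exons of Ptprc, the gene of the surface phosphatase CD45. Many SR genes limit their own level through exons that mark the transcript for decay, which gene-level values such as these do not resolve.

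Expression is given as adjusted TPM, a length-corrected share of transcripts rescaled between libraries by the authors, so levels may be compared between genes. The totals ran from 561020 in female B cell library 3 to 1453940 in male T cell library 6, and sequencing depth is unknown. A single noncoding gene, Yam1, took 32.2% of the total in female B cell library 1 and 37.4% in male T cell library 6, while the first gene of each other library took 11.4% to 17.8%. The B cell marker Cd79a ran from 417 to 573 in B cells but only from 0.571 to 1.58 in T cells, and the 5 T cell markers (Cd3d, Cd3e, Cd4, Lck and Tcf7) summed to 9.76 to 14.1 in the former and to 1017 to 1194 in the latter. Genes of dividing cells (4 genes, Cdk1, Ccnb1, Top2a and Mki67) summed to 22.1 to 48.2 in B cells but to 3.47 to 5.47 in T cells, and their part in the differences below was not tested. Markers of monocytes and macrophages (3 of 4 in the table) summed to 8.95 to 13.1 and to 1.06 to 4.55, of plasma cells (3 genes) to 49.7 to 64.1 and to 26.5 to 32.8, and of erythroid cells (3 genes) to 0.912 to 198 and to 2.45 to 43.8, while those of neutrophils and of natural killer cells (3 genes each) stayed at or under 2.57 in every library, and the part of these cells was not tested either. Of the plasma cell genes, Xbp1 had means of 50.1 in B and 27.0 in T cells and Sdc1 of 6.15 and 0.0037, while Prdm1 went the other way, with 0.676 and 1.66. In RNA from whole populations, fewer cells with a transcript and less of it per cell cannot be told apart.

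Both families were expressed at high levels and with a few dominant members. Summed over the 11 Srsf genes, the level was 1292 ± 84.4 adjusted TPM for B cells (SD, n = 6), beside 1332 ± 69.2 for T cells (SD, n = 6), and over the 20 Hnrnp genes it was 2905 ± 111 (SD, n = 6) and 3312 ± 133 (SD, n = 6). The Hnrnp sums did not overlap between the cell types, with 2747 to 3043 in B cells, below the 3175 to 3510 in T cells. As a share of the protein-coding total, however, the 31 genes together took 0.954% to 1.10% in B cells but 0.830% to 1.06% in T cells, so the order of the cell types in the sum depends on the scale. Srsf5, Srsf1 and Srsf3 made up 54.3% of the Srsf sum in B cells, compared with 57.4% in T cells. Hnrnpf, Hnrnpk and Hnrnph1 made up 41.3% and 43.3% of the Hnrnp sum. Median levels were 98.2 for the Srsf genes and 114 for the Hnrnp genes, and the only members with a mean under 10 in either cell type were Srsf12, in both, and Hnrnpll, in B cells.

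**Figure D1:**
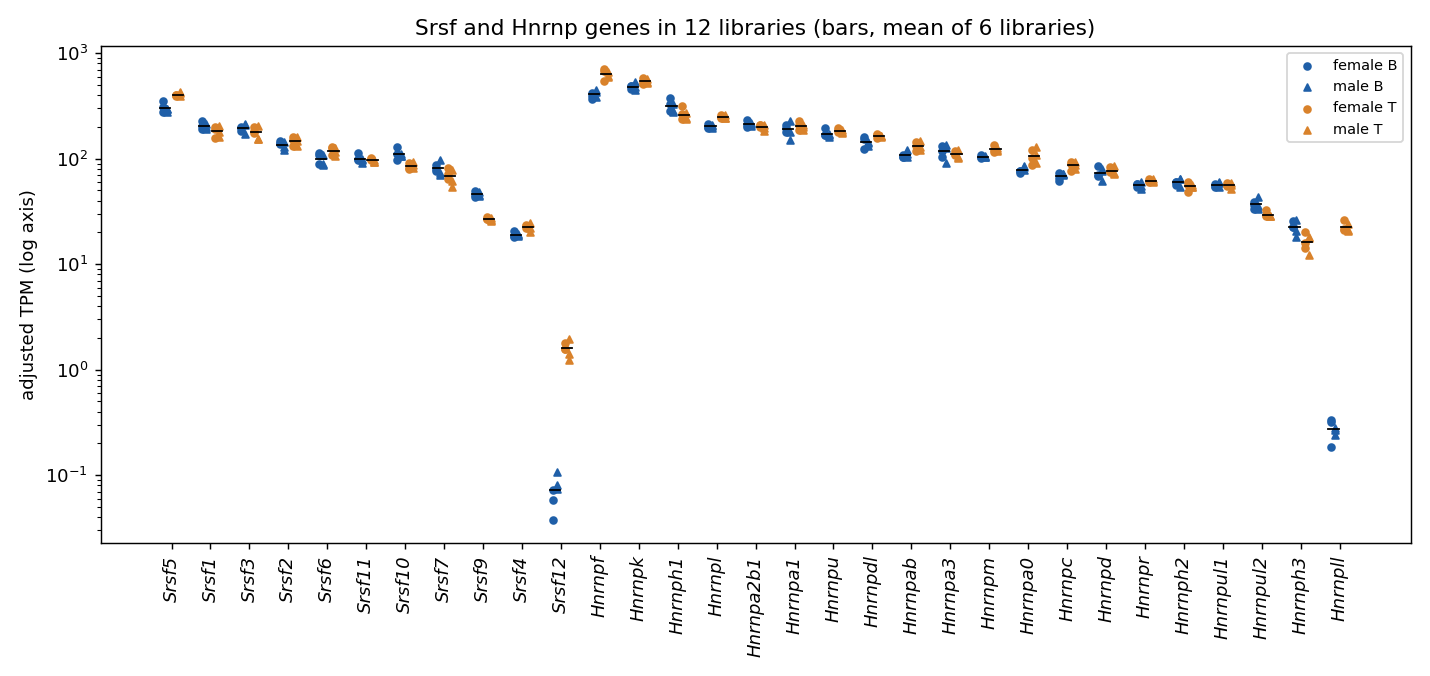
Adjusted TPM on a log axis for the 11 Srsf genes and then the 20 Hnrnp genes, ordered within each family by mean. Each point is 1 of the 12 libraries (blue, B cells, orange, T cells, circles, females, triangles, males), and bars mark the mean of 6 libraries per cell type. Most members lie above 10 in both cell types, while Srsf12 and Hnrnpll are far lower in B cells than in T cells.

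B cells and T cells were compared first, averaged over the sexes. Of the 31 genes, 20 (64.5%) passed an adjusted p of 0.05 in limma (version 3.58.1), where 73.0% of all 12520 tested genes did. Higher levels in B cells were called for 6 members, against 31.4% of all tested genes, and higher levels in T cells for 14 members, against 41.6% of all tested genes. The members' shares were 19.4% and 45.2%, and most of the differences were small. The median absolute log2 difference was 0.24 over the 31 members and 0.40 over all tested genes, and the members with both a call and an absolute log2 difference of at least 0.5 were 4 (Hnrnpf, Hnrnpll, Srsf12 and Srsf9), or 12.9%, against 42.1% of all tested genes. All libraries of one cell type lay above all of the other for 11 members (35.5%), against 53.9% of all tested genes. Within groups, the median SD of the members on the log2 scale was 0.099 for B and 0.11 for T cells, beside 0.12 for both in the 6720 tested genes with a mean of at least 10.

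The split between the directions depended on how libraries were scaled to each other. It was 6 up in B and 14 up in T cells on the deposited scale, 12 and 9 with median-ratio scaling, 10 and 10 after quantile normalization, 10 and 2 with every library set to a total of 1000000, and 14 and 3 with an equal protein-coding total. Over all 12520 tested genes the shares called higher in B and in T cells were 31.4% and 41.6% on the deposited scale, and 37.8% and 34.4%, 31.0% and 42.2%, 38.4% and 15.9%, and 45.4% and 23.6%, in the same order of scalings. Median-ratio scaling, the fixed total and the equal protein-coding total raised the all-gene median of the log2 difference from -0.088 by 0.10, 0.34 and 0.25. Measured from that median, 14 members lay above it and 17 below on the deposited scale, and 15 to 19 above and 12 to 16 below on the other scales. Of the 20 called members, 8 kept their call and direction under all 4 other scalings, which were Srsf9, Srsf10, Srsf7, Hnrnph1, Hnrnph3 and Hnrnpul2, higher in B cells, and Hnrnpll and Srsf12, higher in T cells. Hnrnpll and Srsf12 passed the filter through T cells alone and so had to differ. The share of all called genes that kept call and direction was not computed. Hnrnpf, Srsf5 and Hnrnpa0 kept their direction but not their call. The direction, like the call, of Hnrnpab, Hnrnpc, Hnrnpdl, Hnrnpk, Hnrnpl, Hnrnpm, Hnrnpr, Srsf4 and Srsf6 was therefore not settled on an absolute scale, although Hnrnpab, Hnrnpc, Hnrnpdl, Hnrnpl, Hnrnpm, Srsf4 and Srsf6 stayed below the median gene on every scale.

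**Figure D2:**
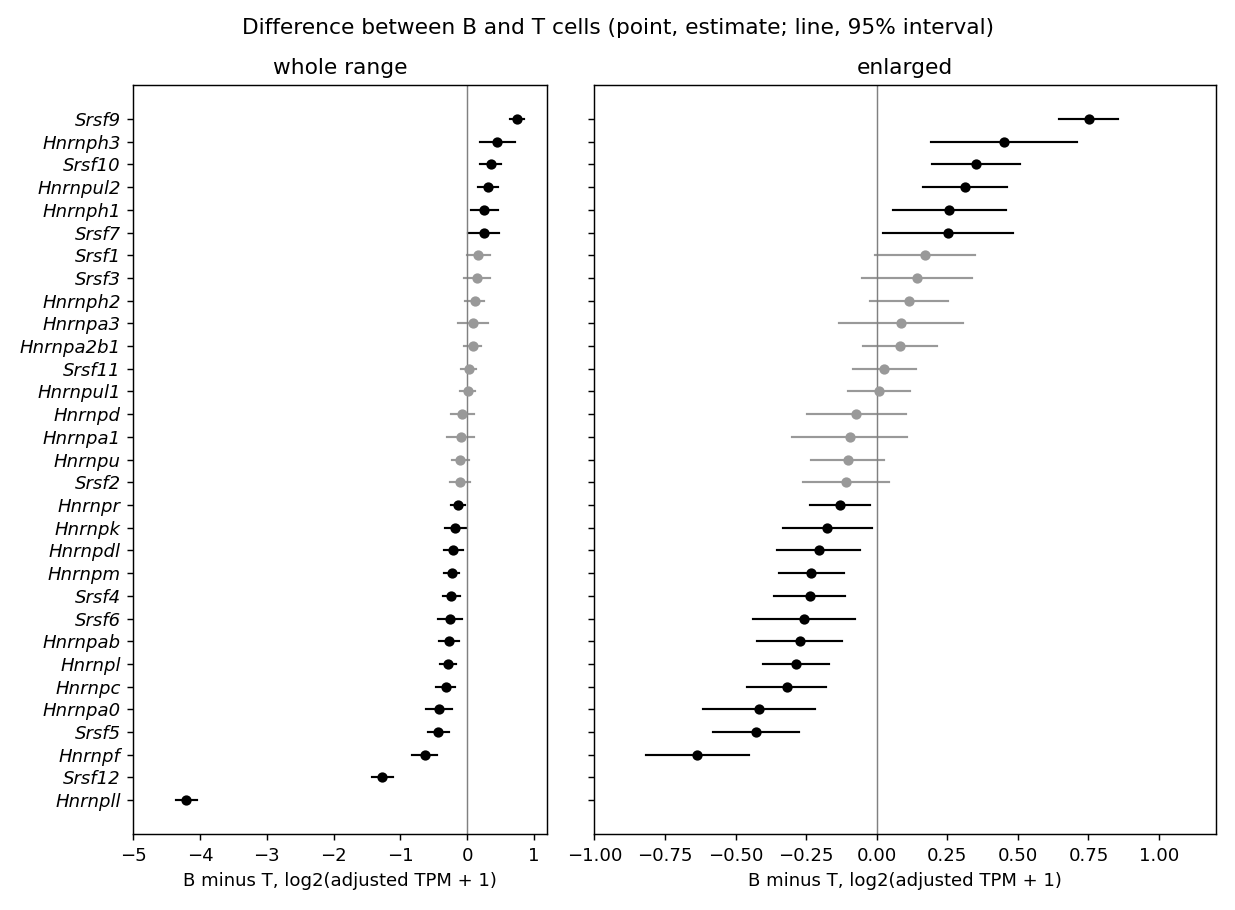
Difference between B and T cells in log2(adjusted TPM + 1) for the 31 genes, over the whole range (left) and enlarged (right, without Srsf12 and Hnrnpll, which lie beyond the axis). Points are limma estimates over 12 libraries, lines are 95% intervals, and black marks an adjusted p under 0.05. Srsf9 is highest at 0.75 and Hnrnpll lowest at -4.20, and 28 of the 31 points lie between -0.64 and 0.45.

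Srsf9, an SR protein with a short arginine and serine tail that is the closest relative of Srsf1, differed most among the genes higher in B cells. Its adjusted TPM was 45.3, 43.1 and 49.5 in female B cells, 48.4, 44.6 and 45.8 in male B cells, 27.1, 27.8 and 27.1 in female T cells and 27.7, 26.3 and 25.9 in male T cells. The lowest B cell library lay above the highest T cell library, also by the deposited bounds, and the log2 difference was 0.75 ± 0.048 (SE), adjusted p = 1.4e-08, with a ratio of means of 1.71. Srsf10, which works as a splicing repressor when dephosphorylated, was 128, 97.4 and 111 in female B cells, 112, 105 and 105 in male B cells, 79.5, 82.4 and 90.8 in female T cells and 87.0, 80.8 and 93.9 in male T cells. Every B cell library lay above every T cell library, although the deposited bounds overlapped, and the log2 difference was 0.35 ± 0.071 (SE), adjusted p = 0.00066. Srsf7, a shuttling SR protein that also links splicing to RNA export, had 69.9 to 97.5 in B cells, compared with 53.7 to 80.8 in T cells, which overlap, and a log2 difference of 0.25 ± 0.11 (SE), adjusted p = 0.048. This call was lost without 8 of the 12 libraries taken singly, with an adjusted p between 0.0097 and 0.12, and also with the replicate number as a block (adjusted p = 0.064).

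Srsf5, also called SRp40, was the most abundant SR gene in both cell types. Its adjusted TPM was 355, 276 and 309 in female B cells, 279, 294 and 295 in male B cells, 393, 397 and 400.1 in female T cells and 415, 429 and 393 in male T cells. T cell libraries were all higher, also by the deposited bounds, and the log2 difference was -0.43 ± 0.070 (SE), adjusted p = 0.00012, which under the other scalings lay between -0.32 and -0.047. Its share of the Srsf sum was 23.3% ± 1.13 for B cells (SD, n = 6), beside 30.5% ± 2.20 for T cells (SD, n = 6). Srsf12, an SR-related protein that can counteract SR proteins, was 0.0582, 0.0732 and 0.0375 in female B cells, 0.0805, 0.0745 and 0.108 in male B cells, 1.57, 1.58 and 1.78 in female T cells and 1.97, 1.25 and 1.42 in male T cells. It was low in all libraries and passed the filter through T cells alone, so it had to differ, and the highest upper bound in B cells was 0.193 against a lowest lower bound of 0.980 in T cells. Its log2 difference was -1.27 ± 0.073 (SE), adjusted p = 4.2e-09, which the pseudocount of 1 makes smaller than the ratio of means of 22.2.

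Srsf1 and Srsf3 are the prototype SR protein and the smallest one. Srsf1 was 228, 191 and 206 in female B cells, 199.7, 212 and 191 in male B cells, 159, 192 and 200.2 in female T cells and 160.3, 179.5 and 204 in male T cells. Srsf3 was 201, 184 and 197 in female B cells, 209, 212 and 170.4 in male B cells, 175, 182 and 201 in female T cells and 152, 152 and 205 in male T cells. The cell types overlapped for both genes, and the log2 differences were 0.17 ± 0.081 (SE), adjusted p = 0.077, for Srsf1 and 0.14 ± 0.089 (SE), adjusted p = 0.16, for Srsf3. Their 95% intervals ran from -0.0074 to 0.35 and from -0.051 to 0.34. Both passed the threshold as higher in B cells under all 4 other scalings. Of the remaining SR genes, Srsf4 (18.1 to 20.6 in B cells, 20.2 to 24.8 in T cells) and Srsf6 (86.3 to 113 and 106 to 128) were called higher in T cells on the deposited scale, with log2 differences of -0.24 and -0.26. Srsf2, the nuclear SR protein also called SC35 (119.8 to 146 and 132 to 159), and Srsf11 (90.5 to 112 and 92.8 to 103) did not pass on that scale, with 95% intervals of -0.26 to 0.044 and -0.085 to 0.14. Under the 4 other scalings Srsf11 had log2 differences of 0.079 to 0.41. It stayed without a call under 2 of them and was called higher in B cells otherwise.

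**Figure D3:**
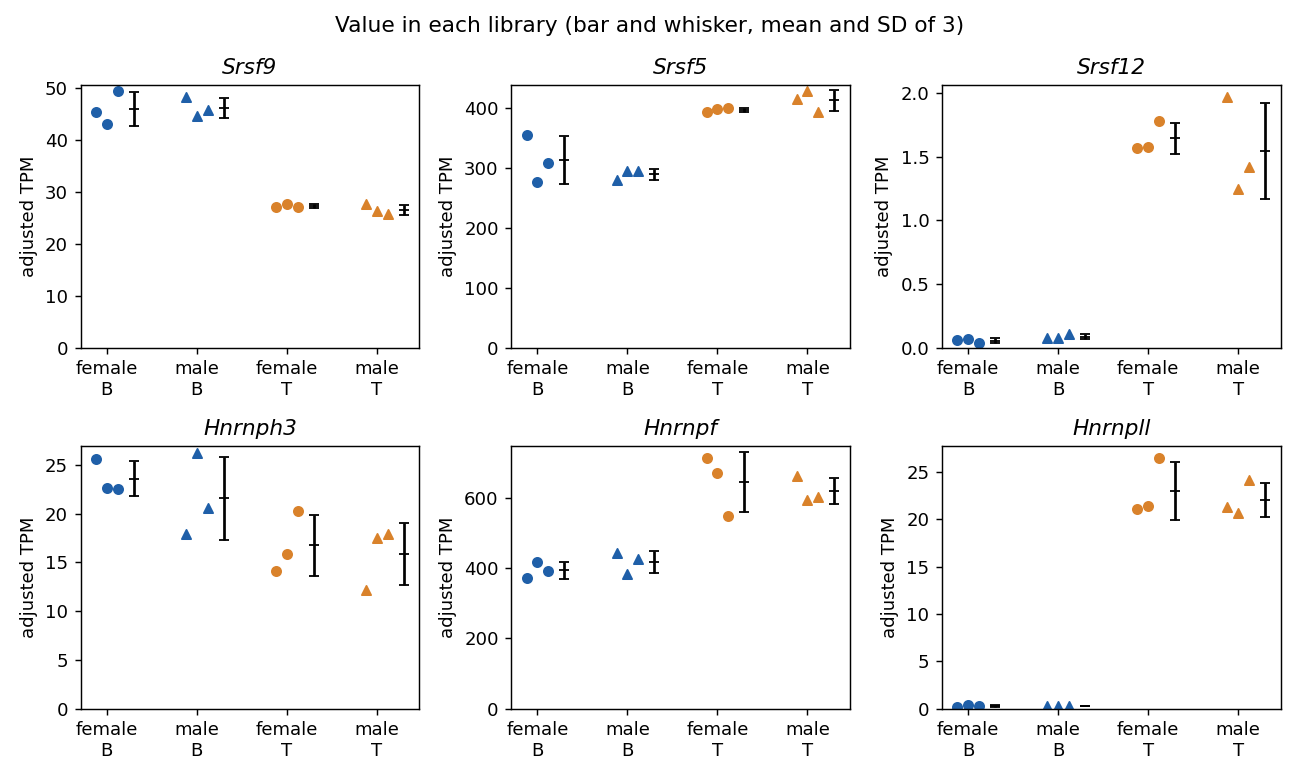
Adjusted TPM of Srsf9, Srsf5, Srsf12, Hnrnph3, Hnrnpf and Hnrnpll in each library (circles, females, triangles, males, blue, B cells, orange, T cells), with the mean and SD of the 3 libraries of each group beside the points. Each axis starts at 0. B and T cell libraries overlap for Hnrnph3 and are separate for the other 5 genes.

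Hnrnpll had by far the largest difference of the members. Its adjusted TPM was 0.185, 0.336 and 0.317 in female B cells, 0.243, 0.280 and 0.270 in male B cells, 21.1, 21.4 and 26.4 in female T cells and 21.3, 20.6 and 24.1 in male T cells. It was close to undetected in B cells, with a highest upper bound of 0.472, and its lowest lower bound in T cells was 19.7. The log2 difference was -4.20 ± 0.071 (SE), adjusted p = 1.7e-14, and the ratio of means was 82.8, a value that rests on B cell levels of low precision. It passed the filter through T cells alone, so it too had to differ. Its paralog Hnrnpl, an activator and repressor at CA-rich sequences, was present in both cell types, with 197 to 215 in B cells, compared with 241 to 259 in T cells, a log2 difference of -0.29 ± 0.053 (SE), adjusted p = 0.00036. The ratio of Hnrnpl to Hnrnpll therefore ran from 598 to 1065 among B cell libraries and from 9.23 to 12.3 among those of T cells. Ptprc, the known target of hnRNP LL, had 638 to 788 in B cells, compared with 871 to 1024 in T cells at the level of the whole gene, and its exons were not analysed here. Its log2 difference ran from -0.41 on the deposited scale to 0.080 after quantile normalization, and it was not called under 3 of the 4 other scalings.

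The genes of the F and H subfamily, which bind runs of G, went in different directions. Hnrnpf was the most abundant member overall and was 371, 419 and 393 in female B cells, 444, 383 and 427 in male B cells, 716, 671 and 549.7 in female T cells and 662, 595 and 604 in male T cells. T cell libraries were all higher, also by the deposited bounds, and the log2 difference was -0.64 ± 0.084 (SE), adjusted p = 1.8e-05. With every library set to a total of 1000000 it was -0.25, adjusted p = 0.36. Hnrnph1 was 375, 286 and 327 in female B cells, 278, 328 and 286 in male B cells, 239, 266 and 318 in female T cells and 243, 235 and 269.9 in male T cells. The highest T cell library, female 6, lay above 3 of the 6 B cell libraries, and the log2 difference was 0.26 ± 0.092 (SE), adjusted p = 0.023, a call that was lost without 4 of the 12 libraries taken singly, with an adjusted p of up to 0.059. Hnrnph3, the least abundant of the subfamily, was 25.7, 22.6 and 22.6 in female B cells, 17.9, 26.3 and 20.6 in male B cells, 14.1, 15.9 and 20.3 in female T cells and 12.2, 17.5 and 18.0 in male T cells. The cell types overlapped, since male B cell library 1 lay just below both T cell libraries 6, and the log2 difference was 0.45 ± 0.12 (SE), adjusted p = 0.0042. An opposite-strand gene, Rufy2, overlaps Hnrnph3 and had a mean of 17.1 in B but 24.8 in T cells, and its part in the values was not tested. Hnrnph2 on chromosome X did not pass, with 53.6 to 64.0 and 48.7 to 60.0 and a 95% interval of -0.026 to 0.25 on the deposited scale, but it was called higher in B cells under all 4 other scalings, with log2 differences of 0.17 to 0.49 and adjusted p-values of up to 0.026. The ratio of Hnrnph1 to Hnrnpf ran from 0.626 to 1.01 among B cell libraries and from 0.334 to 0.578 among those of T cells, without overlap, and is free of any factor applied to a whole library.

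Hnrnpk, which binds C-rich sequences, was nearly as abundant as Hnrnpf and was 487, 486 and 454 in female B cells, 528, 443 and 476 in male B cells, 576, 535 and 506 in female T cells and 573, 520.0 and 533 in male T cells. The ranges overlapped, the log2 difference was -0.17 ± 0.073 (SE), adjusted p = 0.046, and the call was lost without 10 of the 12 libraries taken singly and with the replicate number as a block (adjusted p = 0.062). Hnrnpa0, a relative of hnRNP A1 that is also known to bind AU-rich elements of mRNA, was 73.8, 76.8 and 76.4 in female B cells, 84.4, 78.6 and 82.8 in male B cells, 121, 102 and 87.4 in female T cells and 129, 107 and 91.3 in male T cells. All T cell libraries were higher, although the deposited bounds overlapped, reaching 87.5 in B cells and starting at 85.1 in T cells. The log2 difference was -0.42 ± 0.091 (SE), adjusted p = 0.0011. Under the other scalings Hnrnpa0 had -0.36 to -0.039 and kept its call under 2 of the 4. Hnrnpul2, a relative of hnRNP U, was 33.6, 39.3 and 36.4 in female B cells, 35.8, 33.3 and 43.4 in male B cells, 32.8, 29.5 and 28.6 in female T cells and 28.9, 28.5 and 28.6 in male T cells. All B cell libraries were higher, although the deposited bounds overlapped, and the log2 difference was 0.31 ± 0.069 (SE), adjusted p = 0.0012. Its relative Hnrnpul1 was nearly equal in the cell types on the deposited scale, at 56.7 ± 2.86 (SD, n = 6) and 56.4 ± 2.61 (SD, n = 6), with a 95% interval of -0.10 to 0.12. Under the 4 other scalings Hnrnpul1 had log2 differences of 0.066 to 0.38. It stayed without a call under 2 of them and was called higher in B cells otherwise.

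The remaining hnRNP genes were called higher in T cells or did not pass on the deposited scale. Those called on the deposited scale were Hnrnpc, which binds U-rich tracts, with 61.9 to 72.9 in B cells, compared with 76.9 to 93.5 in T cells, Hnrnpm with 101 to 108 and 115 to 136, Hnrnpab with 103 to 119.8 and 119 to 147, Hnrnpdl with 124 to 160.5 and 158 to 171 and Hnrnpr with 51.9 to 60.0 and 59.6 to 63.7. Their log2 differences were -0.32, -0.23, -0.27, -0.21 and -0.13. The core A and B proteins did not pass, with means of 190.4 ± 26.5 and 202 ± 14.8 (SD, n = 6) for Hnrnpa1, 213 ± 12.2 and 201 ± 10.7 (SD, n = 6) for Hnrnpa2b1 and 118 ± 17.9 and 110.3 ± 7.68 (SD, n = 6) for Hnrnpa3 in B and T cells. Neither did Hnrnpd, also known as AUF1 (73.7 ± 8.54 and 77.3 ± 5.29, SD, n = 6), or Hnrnpu, also known as SAF-A (172 ± 13.1 and 184 ± 7.57, SD, n = 6). Over these 5 genes the 95% intervals on the deposited scale lay between -0.30 and 0.31. Under the 4 other scalings, Hnrnpa2b1 had log2 differences of 0.20 to 0.46 and stayed without a call under only 1, being called higher in B cells otherwise. Hnrnpa3 had 0.16 to 0.47 and stayed without a call under 2, being called higher in B cells otherwise. Near-identical copies elsewhere in the genome can share reads with a member. For Hnrnpa3, 36 such copies were found, and those in the table summed to 8.90% of its mean. A single copy of Hnrnpc reached 8.96%, and the copies of Hnrnpa1, Hnrnpk and Hnrnpf reached 3.22%, 3.17% and 3.07%. Other genes also overlap members. March2 lies over Hnrnpm on the same strand, with a mean of 23.4 in B and 34.8 in T cells, Mettl23 over Srsf2 on the opposite strand, with 42.1 and 61.5, and Cox20 over Hnrnpu on the opposite strand, with 21.4 and 30.5. Their part in the members' values was not tested.

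Ratios between related members are free of any factor applied to a whole library, though not of reads shared with copies. Of 13 pairs, 5 had no overlap between B and T cells. Beyond Hnrnpl to Hnrnpll and Hnrnph1 to Hnrnpf, these were Srsf1 to Srsf9, which ran from 4.13 to 5.03 among B cell libraries and from 5.79 to 7.87 among those of T cells, Hnrnpul1 to Hnrnpul2, from 1.39 to 1.71 among B cell libraries and from 1.79 to 2.05 among those of T cells, and Srsf10 to Srsf12, from 972 to 2963 among B cell libraries and from 44.2 to 66.0 among those of T cells. In 2 of the 5, Hnrnpl to Hnrnpll and Srsf10 to Srsf12, the denominator had passed the filter through T cells alone, so these ratios had to separate. The other 8 overlapped, including Srsf3 to Srsf7 (2.43 ± 0.233 in B cells and 2.62 ± 0.139 in T cells, SD, n = 6), Hnrnpa1 to Hnrnpa2b1 and Hnrnpd to Hnrnpdl. Among pairs without overlap, those with Srsf9, Hnrnpf and Hnrnpul2 each held a gene whose libraries separated alone. Of all single tested genes 53.9% did not overlap, and the share over other pairs of genes was not computed.

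The kinases and partners of SR proteins were examined next as a list of 16 genes, of which 5 were called higher in B and 3 higher in T cells on the deposited scale, where 31.4% and 41.6% of all tested genes were. The counts were 6 and 2 with median-ratio scaling, 7 and 2 with the fixed total, 10 and 2 with the equal protein-coding total and 5 and 3 with quantile normalization. Their median log2 difference was 0.029, against -0.088 over all tested genes. The SRPK kinases, which phosphorylate the tail of SR proteins, had larger absolute log2 differences than Srsf9 on the deposited scale. Srpk3 had 48.2 to 61.1 in B cells, compared with 0.716 to 0.986 in T cells, where every library was under the filter of 1. It passed through B cells alone and so had to differ, and the log2 difference was 5.01. Srpk1 was the reverse, with 32.9 to 37.6 and 142 to 163, a log2 difference of -2.06 ± 0.051 (SE), adjusted p = 7.3e-13. Srpk2 followed Srpk1, with 15.0 to 16.7 and 26.7 to 30.7, a log2 difference of -0.84 ± 0.050 (SE), adjusted p = 6.8e-09. Srpk1 and Srpk2 kept their call and direction under the 4 other scalings. Among these the difference of Srpk2 shrank to as little as -0.48, while that of Srsf9 was 0.79 to 1.13. Of the nuclear CLK kinases, Clk1 (234 to 389 and 272 to 379) and Clk4 (means of 119.9 and 115) did not pass, while Clk2 was called higher in B and Clk3 higher in T cells, with log2 differences of 0.24 and -0.28. Clk2 kept its call under the 4 other scalings, while Clk3 ran from -0.28 to 0.081 and was not called under 3 of them. The SR-related scaffold genes Srrm1, Srrm2 and Son were called higher in B cells, with log2 differences of 0.30, 0.31 and 0.15, and the importer of SR proteins, Tnpo3, did not pass (32.3 to 36.1 and 34.4 to 37.5).

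Among hnRNP proteins that carry other gene names, 5 were called higher in T cells on the deposited scale (Raly, Pcbp3, Pcbp4, Syncrip and Ptbp1), and Ptbp3 was called higher in B cells with a log2 difference of 0.25 ± 0.063 (SE), adjusted p = 0.0032. Raly, a relative of hnRNP C, had 65.7 to 81.7 in B cells, compared with 119 to 164 in T cells, a log2 difference of -0.94 ± 0.096 (SE), adjusted p = 1.5e-06. Of 30 genes of the core spliceosomal particles and U2AF, 3 were called higher in B cells (Sf3a2, Sf3b4 and Prpf8) and 11 higher in T cells, with a median log2 difference of -0.15. The small Sm proteins Snrpe, Snrpf and Snrpg had the largest of these, with log2 differences of -0.61, -0.80 and -0.65, which stayed negative under the other scalings but lost their call with every library set to a total of 1000000. The direction of the list depended on the scaling, with 9 called higher in B and 10 in T cells after median-ratio scaling (median -0.043), 7 and 0 with the fixed total (0.22), 11 and 3 with the equal protein-coding total (0.12) and 5 and 11 with quantile normalization (-0.11). Of 12 tested genes among 13 other splicing regulators, 4 were called higher in B and 3 in T cells, which became 7 and 1, 6 and 0, 8 and 1, and 5 and 1 under the same 4 scalings. Qk, the quaking RNA-binding protein, had 39.6 to 47.7 in B cells, compared with 19.4 to 23.7 in T cells, a log2 difference of 0.96 ± 0.068 (SE), adjusted p = 4.3e-08, and Mbnl1, the muscleblind splicing factor, had 168 to 219.9 and 329 to 363, a log2 difference of -0.82 ± 0.077 (SE), adjusted p = 6.3e-07, which with every library set to a total of 1000000 was -0.44, adjusted p = 0.079.

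Females and males were then compared within each cell type. None of the 31 genes passed in B cells, in T cells or for the difference between the sex effects (limma, adjusted p of 1 for every member), and 0 members had an unadjusted p under 0.05 in any of the 3. Over all tested genes, 18 (0.144%) were called in B cells, 13 (0.104%) in T cells and 0 (0%) for the difference between the sex effects, with 373, 319 and 295 genes at an unadjusted p under 0.05. Log2 differences of members, females minus males, ran from -0.11 for Hnrnpa0 to 0.14 for Hnrnph1 in B cells and from -0.076 for Hnrnpa0 to 0.17 for Srsf7 in T cells. Their 95% intervals all lay between -0.39 and 0.50, so sex differences larger than these bounds were outside every interval. The smallest unadjusted p in each cell type belonged to Srsf11, with log2 differences of 0.11 ± 0.073 (SE) in B and 0.083 ± 0.073 (SE) in T cells, adjusted p = 1 for both. Its adjusted TPM was 112, 97.5 and 99.3 in female B cells, 90.5, 98.4 and 97.1 in male B cells, 97.2, 100.4 and 103 in female T cells and 92.8, 96.3 and 94.0 in male T cells. For the difference between the sex effects it belonged to Srsf5, at 0.16 ± 0.14 (SE), adjusted p = 1. Female and male libraries did not overlap for 2 members in B cells (Hnrnpa0 and Srsf12, higher in males) and 1 in T cells (Srsf11, higher in females), which are 6.45% and 3.23% of the members, against 7.2% and 8.49% of all tested genes. Same-numbered T cell libraries of the sexes varied together, so they were also compared as pairs. The female library was higher in all 3 pairs for 6 members (Hnrnpl, Hnrnpu, Srsf2, Srsf6, Srsf7 and Srsf11) and lower in all 3 for Hnrnpa0, 7 of 31 in all, against 28.0% of all tested genes with 1 direction in the 3 pairs. In a fit of the T cell libraries alone with the pair as a block, chosen after seeing the data, 0 members were called and Srsf7 had the smallest p of the members, with a log2 difference of 0.17 ± 0.057 (SE), unadjusted p = 0.040, adjusted p = 0.79 in limma. Hnrnpa0 was at -0.076 ± 0.037 (SE), adjusted p = 0.80. Over all tested genes this fit called 5, with 764 at an unadjusted p under 0.05.

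Members also varied between T cell libraries of the same sex. Libraries 6 of both sexes lay above libraries 4 of both sexes for 6 of the 11 Srsf genes (Srsf1, Srsf2, Srsf3, Srsf6, Srsf7 and Srsf10) and below them for 1 (Srsf4). For the 20 Hnrnp genes the counts were 4 above (Hnrnpdl, Hnrnph1, Hnrnph3 and Hnrnpll) and 13 below. Over the 6519 tested genes with a T cell mean of at least 10, 21.6% lay above and 42.8% below. Srsf7 was 0.34 higher in female and 0.54 higher in male library 6 on the log2 scale, and Hnrnph3 was 0.49 and 0.52 higher. Hnrnpa0 was lower by 0.47 and 0.50, with log2 differences of -0.47 and -0.50. This pattern was noticed in the data and is given without a test. It is on the deposited scale, where the totals of libraries 4 and 6 were 904447 and 799769 in females and 944351 and 1453940 in males. How many genes lie above or below depends on that scale, and the pattern was not examined under the other scalings. Fos, an immediate early gene, was highest in libraries 4 and lowest in libraries 6. It was at 171 in female and 189 in male library 4, 108 and 131 in libraries 5, and 45.2 and 41.5 in libraries 6. Of the same list of immediate early and stress genes, Fosb, Jun and Junb had this order in both sexes, while Egr1, Hspa1a, Hspa1b and Dnajb1 did not. The part of these genes in the pattern was not tested. In B cells Fos was highest in female library 1 at 174 and lowest in male library 3 at 16.6. Without both T cell libraries 4, the comparison of B with T cells called 4 members higher in B and 13 higher in T cells.

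**Figure D4:**
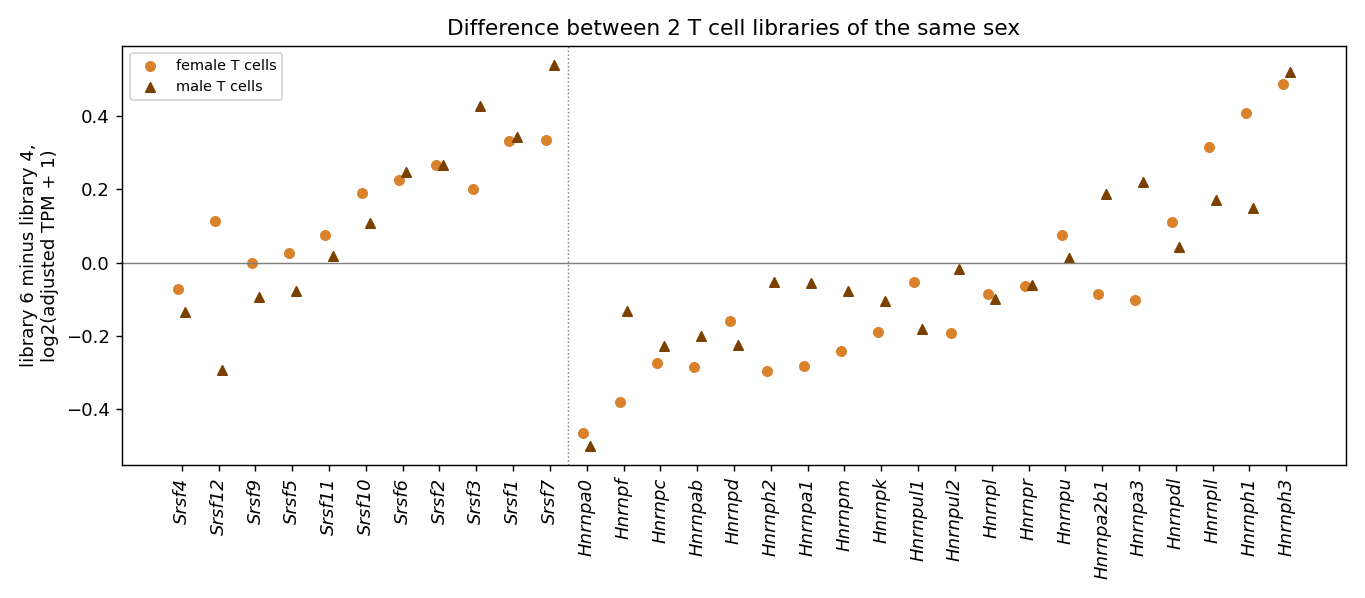
Library 6 minus library 4 of the same sex in T cells, in log2(adjusted TPM + 1) on the deposited scale. The 11 Srsf genes are left of the dotted line and the 20 Hnrnp genes right, each family ordered by the mean of both sexes. Circles are female and triangles male T cells, with 1 library behind each term. Females and males mostly agree in sign, with Srsf7 and Hnrnph3 at the top of their families and Hnrnpa0 lowest.

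Several members lie near each other in the genome (GRCm38, GENCODE M21). Hnrnpll (chr17:80029487-80062334, minus strand) and Srsf7 (chr17:80200080-80207307, minus strand) lie 138 kb apart with 1 protein-coding gene between them. They were called in opposite directions, but Hnrnpll passed the filter through T cells alone and so had to differ. The Srsf7 call was kept in only 4 of the 12 fits without 1 library. Hnrnpd and Hnrnpdl on chromosome 5 lie 54.6 kb apart with 1 protein-coding gene between them, Hnrnpa0 and Hnrnpk on chromosome 13 lie 263 kb apart with 5, and Hnrnpr and Srsf10 on chromosome 4 lie 441 kb apart with 14. Promoter sequences of RefSeq (GRCm38.p6) were found for 29 of the 31 genes, all except Hnrnpll and Hnrnpul2. The 250 bases before the start site are shown for 3 members whose B and T cell libraries did not overlap on the deposited scale, Srsf9 (higher in B cells, chr5:115326927-115327176, plus strand), Srsf5 (higher in T cells, chr12:80945249-80945498, plus strand) and Hnrnpa0 (higher in T cells, chr13:58128557-58128806, minus strand). Srsf5 and Hnrnpa0 each kept their call under only 2 of the 4 other scalings. Each sequence lies just upstream of the gene as annotated and is written 5′ to 3′ on the strand of the gene, with capitals marking the motifs GGGCGG (the GC box), CCGGAAG (the ETS core) and CCAAT on either strand.
Srsf9: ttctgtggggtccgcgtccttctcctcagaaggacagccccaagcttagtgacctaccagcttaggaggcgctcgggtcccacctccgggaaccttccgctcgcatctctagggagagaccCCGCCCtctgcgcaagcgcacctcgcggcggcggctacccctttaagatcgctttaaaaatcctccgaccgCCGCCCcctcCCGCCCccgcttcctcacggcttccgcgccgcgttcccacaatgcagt
Srsf5: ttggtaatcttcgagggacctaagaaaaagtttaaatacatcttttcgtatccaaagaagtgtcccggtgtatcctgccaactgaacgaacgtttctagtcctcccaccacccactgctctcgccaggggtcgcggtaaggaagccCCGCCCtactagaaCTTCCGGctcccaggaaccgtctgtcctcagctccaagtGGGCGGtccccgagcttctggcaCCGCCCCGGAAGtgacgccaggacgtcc
Hnrnpa0: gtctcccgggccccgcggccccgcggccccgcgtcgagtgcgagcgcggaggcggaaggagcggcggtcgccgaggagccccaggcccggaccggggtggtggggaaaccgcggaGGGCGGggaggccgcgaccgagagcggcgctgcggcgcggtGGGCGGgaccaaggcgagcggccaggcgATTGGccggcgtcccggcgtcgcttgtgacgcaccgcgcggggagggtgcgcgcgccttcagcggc
Srsf9 holds 3 GC boxes and no ETS core, Srsf5 holds 3 GC boxes and 2 ETS cores, of which 1 overlaps a GC box by 1 letter, and Hnrnpa0 holds 2 GC boxes and 1 CCAAT box. None of the 3 holds TATAAA or CACGTG on either strand. Some genes have several start sites, and the shares and CpG counts below use only the first listed window of each gene. At least 1 GC box was in 23 of 29 members (79.3%), against 59.8% of 8253 tested genes with such a window and 32.9% of all 27025 genes with one. Hnrnpf counted as without a GC box, although windows of its other start sites hold some. The ETS core was in 20.7% of members, 15.5% of tested genes and 7.05% of all genes, CCAAT in 51.7%, 37.3% and 34.5%, TATAAA in 10.3%, 5.97% and 12.97%, and CACGTG in 6.90%, 8.76% and 6.05%. The members had a median of 23 CpG per window, against 16 in tested genes and 6 in all genes. These matches describe letters only.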

How the data were processed

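RNA of purified lymphocytes was measured in 12 libraries, 3 for each of the groups given by the sample labels. Per the labels, ribosomal RNA was removed, strand-specific libraries were made with synthetic spike-ins, and reads were handled with Trim Galore, FastQC and STAR on build mm10. The table deposited by the authors holds a signal, named adjusted TPM, with a lower and an upper bound per gene and library. The quantification tool, the adjustment and the level of the bounds are not given in the sources used here. Some label fields call the material genomic DNA, but an RNA protocol is described and the table was read as expression. The values are no counts, and depth is unknown, so precision rests on the bounds and on the spread between libraries.

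The 12520 of 41128 genes that reached an adjusted TPM of 1 or more in 3 libraries or more were tested on log2(adjusted TPM + 1), with a pseudocount of 1, by limma 3.58.1 in R 4.3.3. The fit had 1 coefficient for each of the 4 groups and a mean-variance trend, with Benjamini-Hochberg adjustment over all tested genes and a threshold of 0.05, and was tested on simulated data. Each difference is on that scale and understates the change of low genes. P-values measure the spread between these samples, pools whose separate origin the labels do not detail. Alternatives were a pseudocount of 0.1, no filter or a stricter filter (at least 5), 4 other scalings, no trend, a replicate block and leaving out libraries. Where rows shared a symbol, the row with the higher mean was used. Some genes of the lists are not reported here. Same-numbered T cell libraries of the sexes deviated together (r = 0.72, 0.55 and 0.52 over genes), so they were taken as pairs, a reading from these values. The main fit did not use the pairs. For B against T cells the block used 1 correlation of 0.16 for all replicate numbers, those of B cells included. The block changed no sex call of a member. Over all tested genes it called 14 in B and 10 in T cells, where the fit without it called 18 and 13.

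Members and gene lists were chosen with earlier results of these data known. Values are given in every library for the 5 largest called differences in each direction, the 3 most abundant genes of each family and the gene with the smallest unadjusted p in each sex comparison, since the adjusted values tied. Copies were found with blastn 2.17.0+ at 95% identity or more over at least 200 bases. Other steps used Python 3.11.15, numpy 2.4.6, pandas 2.3.3 and matplotlib 3.10.9.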

Additional observations from a re-analysis of the deposited data

How the results depend on the processing

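The number of members called between B and T cells (20 on the deposited scale) lay between 17 and 21 under every alternative but 2. It fell to 12 with every library set to a total of 1000000, and to 16 without female T cell library 4. Leaving out each library in turn gave 16 to 21 called members, 4 to 8 higher in B and 12 to 14 in T cells. The split moved most with the scaling, to 12 higher in B and 9 in T cells with median-ratio scaling, 10 and 2 with the fixed total, 14 and 3 with an equal protein-coding total (chosen after seeing the data) and 10 and 10 with quantile normalization. Without female B cell library 1 and male T cell library 6 together, those with the most Yam1, it was 7 and 14 (also chosen after seeing the data). No sex comparison called a member under any alternative.

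Signs turned for these log2 differences (B minus T), none of them called in the new direction except Hnrnpd with the equal protein-coding total (adjusted p = 0.043). With the fixed total they became Hnrnpa1 0.28, Hnrnpab 0.11, Hnrnpc 0.059, Hnrnpd 0.31, Hnrnpdl 0.18, Hnrnpk 0.21, Hnrnpl 0.096, Hnrnpm 0.15, Hnrnpr 0.25, Hnrnpu 0.28, Srsf2 0.27, Srsf4 0.13 and Srsf6 0.12. With the equal protein-coding total they became Hnrnpa1 0.19, Hnrnpab 0.0097, Hnrnpd 0.21, Hnrnpdl 0.078, Hnrnpk 0.11, Hnrnpm 0.050, Hnrnpr 0.15, Hnrnpu 0.18, Srsf2 0.18, Srsf4 0.034 and Srsf6 0.025. With median-ratio scaling they became Hnrnpa1 0.017, Hnrnpd 0.040, Hnrnpu 0.010 and Srsf2 0.0052, and with quantile normalization Hnrnpa1 0.023, Hnrnpk 0.11, Hnrnpu 0.012 and Srsf2 0.0052. Without 1 library each, Hnrnpul1 ran from -0.016 to 0.032 and Srsf11 from -0.0046 to 0.046. Without female B cell library 1 and male T cell library 6 together they were -0.029 and -0.0059. Causes of these turns were not tested.

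The replicate number as a block gave 18 called members, 5 higher in B and 13 in T cells, and 0 in each sex comparison. The calls lost were Srsf7 (adjusted p = 0.064) and Hnrnpk (adjusted p = 0.062). With the T cell libraries alone (chosen after seeing the data) the block also called 0 members between the sexes. In B cells libraries with the same number did not deviate together across genes (r = -0.17, -0.038 and -0.34), so the values show pairs among the T cell libraries only. Depth is unknown, and the deposited bounds of Srsf12 differ by up to 7.85 times within a library, so its B cell values are imprecise.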
